A study of Mus musculus with 2 samples.

Results

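The regions described here are intergenic Foxf2 binding regions of the mouse palate at middle distance from genes. A region was included when its centre lay more than 10 kb and at most 100 kb from the nearest transcription start site (TSS) of a protein-coding transcript, and outside every protein-coding gene body (GENCODE vM1 genes on mouse build mm9). The rule used position alone. It took 1664 of the 9165 regions (18.2%) of the deposited peak list. At the same distances 1695 regions lay within a gene body, and 1705 intergenic regions lay beyond 100 kb.

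Palatal shelves, the paired outgrowths of the upper jaw that fuse into the palate, were collected at E13.5 (embryonic day) from embryos homozygous for a 3xFLAG tag joined to the endogenous Foxf2 protein by genome editing (Foxf2FLAG/FLAG, 50 pairs of shelves). Chromatin from sonicated nuclei was precipitated with an anti-FLAG antibody and sequenced (ChIP-seq) as 1 library, and 1 input library of the same genotype had no antibody step. No sort is given in the labels, so mesenchyme, epithelium, vessels and nerve may all have contributed, and no ChIP of untagged shelves was analysed here. The ChIP library had 26849463 tags, of which 1.48% fell in peaks and 0.293% in the 1664 regions.

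With 1 library of each kind, no difference has a replicate check and no test was run. Intervals in brackets are 95% intervals for counting error only. Binding data hold no transcript levels, so the tissue could not be compared with marker genes.

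Foxf2, a transcription factor of the forkhead family, is made in the palatal mesenchyme, and mice without it are born with a cleft palate. Forkhead proteins hold DNA through a winged-helix domain, and their preferred core reads GTAAACA with variants. In the palate Foxf2 is known to act downstream of Hedgehog signals from the epithelium and to restrain Fgf18 in the mesenchyme. Intergenic enhancers can act on the gene next to them or on one farther away, so a position names candidate genes and not targets.

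The central 200 bp of 10 regions are printed first because the results turn on them. Each is the plus strand of mm9, read 5′ to 3′. Capitals mark forkhead sites, here any match on either strand to GTAAACA or ATAAACA or GTAAATA or ATAAATA, so a site on the minus strand shows as its reverse complement. The first 2 are high-scoring regions with sites, followed by regions beside the palate genes Ptch1, Osr2, Zeb2 and Foxf2 itself and by the Hes1 region, second highest in ChIP tags. The last 3 are a high-scoring region with no central site, a GC-rich region and a region whose sites form a tandem repeat.
Hhat region (chr1:194616259-194616458): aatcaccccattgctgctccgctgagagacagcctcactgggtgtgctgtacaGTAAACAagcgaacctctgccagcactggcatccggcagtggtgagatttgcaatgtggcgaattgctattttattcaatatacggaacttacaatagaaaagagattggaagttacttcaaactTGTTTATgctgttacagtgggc
Slc1a2 and Cd44 region (chr2:102647978-102648177): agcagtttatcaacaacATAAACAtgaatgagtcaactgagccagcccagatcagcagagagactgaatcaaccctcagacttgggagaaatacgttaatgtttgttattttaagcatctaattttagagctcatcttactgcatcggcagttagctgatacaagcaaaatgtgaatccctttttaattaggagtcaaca
Ptch1 region (chr13:63743200-63743399): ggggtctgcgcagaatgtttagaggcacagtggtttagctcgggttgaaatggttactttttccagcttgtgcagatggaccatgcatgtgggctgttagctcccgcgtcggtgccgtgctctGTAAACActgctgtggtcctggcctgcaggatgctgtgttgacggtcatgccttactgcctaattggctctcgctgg
Osr2 region (chr15:35213545-35213744): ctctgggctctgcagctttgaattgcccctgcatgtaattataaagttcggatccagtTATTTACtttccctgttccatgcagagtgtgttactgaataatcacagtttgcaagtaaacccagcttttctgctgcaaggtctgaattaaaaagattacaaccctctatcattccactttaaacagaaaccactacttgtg
Zeb2 region (chr2:45003001-45003200): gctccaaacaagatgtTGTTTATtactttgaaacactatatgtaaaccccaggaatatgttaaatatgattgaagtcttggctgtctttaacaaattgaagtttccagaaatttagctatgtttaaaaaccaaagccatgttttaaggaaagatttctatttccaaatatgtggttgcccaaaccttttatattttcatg
Foxf2 region (chr13:31760311-31760510): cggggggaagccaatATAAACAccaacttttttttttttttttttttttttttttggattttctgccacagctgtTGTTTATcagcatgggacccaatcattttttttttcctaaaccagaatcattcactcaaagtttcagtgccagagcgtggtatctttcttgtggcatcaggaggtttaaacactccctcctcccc
Hes1 region (chr16:30096637-30096836): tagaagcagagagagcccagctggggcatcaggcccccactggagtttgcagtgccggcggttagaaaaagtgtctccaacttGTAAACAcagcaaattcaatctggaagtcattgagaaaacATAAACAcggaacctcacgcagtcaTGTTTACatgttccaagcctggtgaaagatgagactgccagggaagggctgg
Satb1 region (chr17:52039818-52040017): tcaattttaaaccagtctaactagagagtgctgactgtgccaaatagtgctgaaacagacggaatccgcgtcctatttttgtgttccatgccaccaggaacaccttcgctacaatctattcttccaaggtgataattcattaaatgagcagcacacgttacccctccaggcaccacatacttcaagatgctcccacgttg
Foxd1 region (chr13:99161102-99161301): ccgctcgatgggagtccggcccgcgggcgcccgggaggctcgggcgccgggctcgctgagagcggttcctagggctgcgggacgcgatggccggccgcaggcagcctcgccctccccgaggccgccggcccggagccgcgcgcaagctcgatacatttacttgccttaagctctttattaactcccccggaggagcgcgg
Dem1 region (chr4:120573181-120573380): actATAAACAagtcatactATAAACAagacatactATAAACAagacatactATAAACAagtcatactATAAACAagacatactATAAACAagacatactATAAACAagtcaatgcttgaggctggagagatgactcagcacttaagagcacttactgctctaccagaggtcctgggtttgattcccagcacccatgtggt

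Forkhead sites stood at the centre of the intergenic regions about 3 times as often as beside them. A site was present in the central 200 bp of 848 of 1664 regions (51.0%, 48.6 to 53.4), and in 283 (17.0%, 15.3 to 18.9) of the equally wide windows 2000 bp to the left. The site was in the centre alone in 693 regions and in the flank alone in 128. Over all 9165 peaks the central share was 40.8%, and it was 52.5% (50.1 to 54.9) for regions within genes at the same distance and 55.8% (53.4 to 58.1) for intergenic regions beyond 100 kb. The interval for the intergenic regions at 10 to 100 kb thus overlapped that for regions within genes, and lay above that of the whole list (39.8 to 41.8), which also holds promoters. Anywhere in the peak, whose width varied, 1271 regions (76.4%) held a site.

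The 4 site sequences were not equally concentrated. GTAAACA, the consensus core, occurred 342 times in the central windows and 64 times in the flanks, a ratio of 5.34. ATAAACA occurred 502 against 106 times, a ratio of 4.74, and it was the most numerous site. GTAAATA occurred 121 against 46 times, a ratio of 2.63. ATAAATA, the most AT-rich of the 4, occurred 241 against 157 times, a ratio of 1.54. Sites ending in ACA were thus concentrated more than sites ending in ATA. The related sequence ACAAACA was found in 11.7% of centres and 7.87% of flanks. Reversing the letters of the forkhead site without complementing them, as a check on base composition, gave 22.4% of centres and 19.8% of flanks. Among the reversed sequences, ATAAATA reads the same both ways and is itself a forkhead site, so these shares include it. Leaving out matches that shared bases with a true forkhead site gave 12.5% against 14.2%. That step can remove more matches from centres, which hold more forkhead sites, so neither pair is a clean check on base composition.

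Sites gathered within about 250 bp of the centre. In bins of 50 bp the count reached 20.1 sites per 100 regions just left of the centre. Within 25 bp of the centre the density was 4.15 sites per kb of sequence, against 1.23 around points 5000 bp away. Within 1000 bp of the centres lay 5288 sites, and 23.5% of them were within 100 bp.

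**Figure D1:**
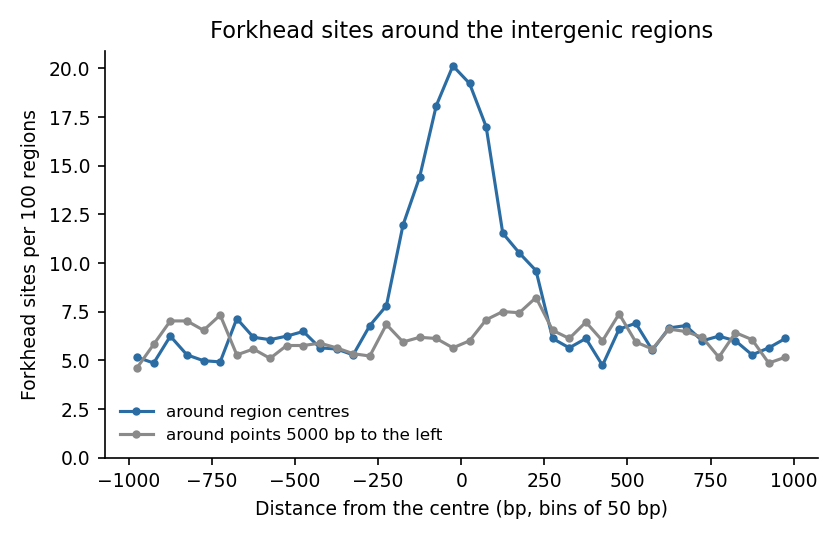
Forkhead sites per 100 regions (vertical axis) by distance from the centre in bp (horizontal axis, bins of 50 bp) for the 1664 intergenic regions (blue) and for points 5000 bp to their left (grey). The blue line rises to 20.1 sites per 100 regions beside the centre and meets the grey line outside about 250 bp.

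Regions with higher scores held a forkhead site more often. The score is the peak caller's own value for a peak and ranks regions within this list. With the regions cut into 5 classes of about equal size by score, the central share was 35.8% (31.2 to 40.6) at scores of 17 to 18, 35.4% at 19 to 21, 51.8% at 22 to 29, 58.2% at 30 to 46 and 75.9% (70.8 to 80.3) at 47 to 189. The flank shares of the same classes ran from 14.6% to 21.5%. The increase thus began above a score of 21 and was found in the centres, whose intervals in the lowest and highest class did not overlap. The median score was 30 (28 to 32) for the 848 regions with a central site and 21 (20 to 21) for the 816 without one. Their median ChIP tags were 40 and 24. The median fold over input was 12.9 in both sets.

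**Figure D2:**
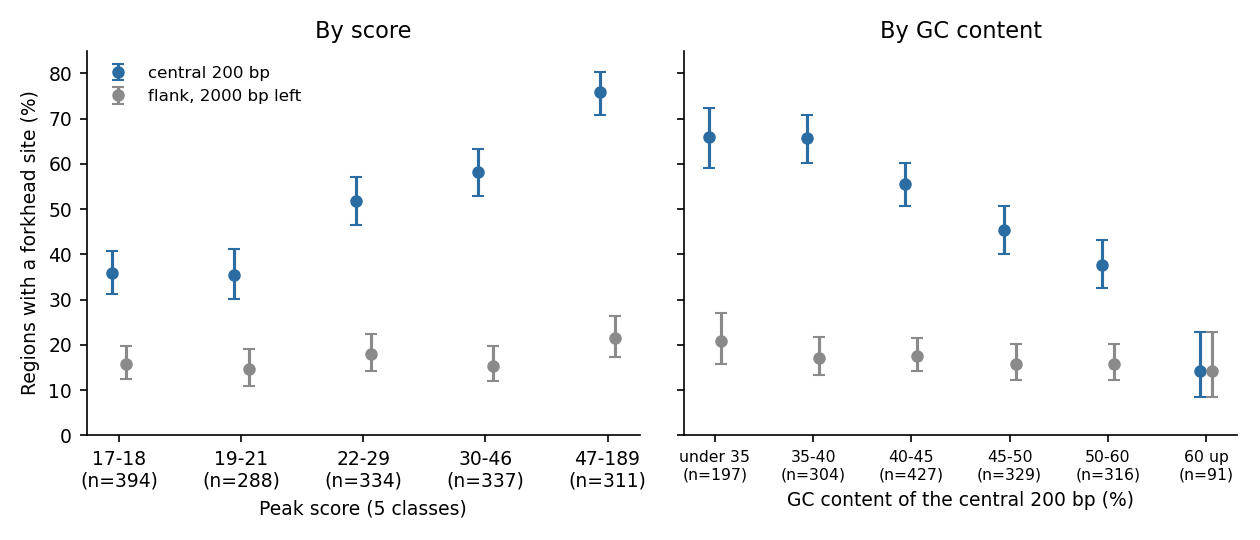
Share of the intergenic regions with a forkhead site in the central 200 bp (blue) and in a flank 2000 bp to the left (grey), in %, by class of the peak score (left) and by GC content of the central 200 bp (right). Bars are Wilson 95% intervals. The central share rises from 35.8% to 75.9% with the score and falls from 66.0% to 14.3% with GC content. Flanks are sorted by the GC content of their centre and not by their own.

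Several sites in one centre were found in a minority of the regions. The central 200 bp held at least 2 sites in 240 regions (14.4%, 12.8 to 16.2) and at least 3 in 65 (3.91%). Over all peaks these shares were 11.2% and 2.73%. Within genes at the same distance they were 13.2% and 2.65%, and for intergenic regions beyond 100 kb 17.7% and 4.46%. Exactly 2 sites were held by 175 centres and 35 flanks, and exactly 3 by 46 centres and 9 flanks. Median scores were 21 for regions with no site, 29 (27 to 31) with 1, 32 (29 to 37) with 2 and 34.5 (29 to 50) with 3, so the intervals for 1, 2 and 3 sites overlapped. In the central 400 bp, pairs of neighbouring sites 16 to 30 bp apart numbered 104 in centres and 23 in flanks, and pairs 61 to 120 bp apart 196 and 28. Pairs whose sites shared bases were the exception, with 127 in centres and 83 in flanks, and 71 on the plus and 34 on the minus strand lay 4 bp apart, as a repeat of the letters ATAA gives. Each wider spacing class held more pairs in centres than in flanks. Pairs on the same strand pool 2 arrangements, both sites on plus and both on minus. Their counts therefore cannot be set against a single opposed order, and no preference of strand was read from them.

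In 5 regions the central 200 bp held 6 or more sites, and they are named after their values were seen. The Dem1 region printed above, between Rims3 and Dem1, scored 148 with 148 ChIP and 5 input tags, and its 7 sites were all ATAAACA on the plus strand at a step of 16 bp. The region upstream of Inhbb held 11 sites in a run of ATAA units but scored 17 with 16 ChIP tags and 1 input tag. The one beside 5031425E22Rik held 18 sites in such runs, with a score of 23, 22 ChIP tags and 1 input tag. The region between Sorcs1 and Ins1 held 8 sites in an irregular repeat and scored 81 with 79 and 3 tags. The 6 sites between Popdc2 and Pla1a, where the score was 54 with 129 and 6 tags, formed no single repeat. The runs of ATAA units thus had the lowest scores of the 5.

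Of the other factors' sequences, some were more frequent in centres than in flanks and some less, all by smaller ratios than the forkhead site or in few regions. Each was searched on both strands in the 1664 regions. The intervals treat centres and flanks as separate sets, although each flank is paired with the centre of its region. The E-box CATCTG, a sequence bound by basic helix-loop-helix factors such as Twist1, was in 18.8% (17.0 to 20.8) of centres and 14.7% (13.1 to 16.5) of flanks. The E-box CAGCTG was in 12.4% (10.9 to 14.1) against 8.89% (7.62 to 10.4). The RUNX sequence TGTGGTT was in 6.55% (5.46 to 7.84) against 4.75% (3.83 to 5.88), intervals that overlapped. It was in the centre alone in 105 regions and in the flank alone in 75. The SOX sequences AACAAAG or AACAATG were in 13.6% against 9.01%, but in 10.2% (8.80 to 11.7) against 8.59% (7.34 to 10.04) once matches that shared bases with a forkhead site were left out, since a forkhead core can supply part of a SOX match. The NFI palindrome was in 14 centres (0.841%, 0.502 to 1.41) and 6 flanks (0.361%, 0.165 to 0.784). The CTCF sequence was in 11 centres (0.661%, 0.370 to 1.18) and 3 flanks (0.180%, 0.0613 to 0.529). The AP-2 palindrome was in 4.99% (4.04 to 6.14) against 3.61% (2.81 to 4.61). The ETS sequence CCGGAA was in 2.82% (2.13 to 3.74) against 1.86% (1.32 to 2.63). For NFI, CTCF, AP-2 and ETS alike, the intervals of centre and flank overlapped. Over all 9165 peaks the central shares were 11.8% (11.2 to 12.5) for AP-2 and 5.11% (4.67 to 5.58) for ETS, both above those of the intergenic regions. For SOX the share over all peaks was 10.7% (10.1 to 11.4), below the 13.6% of the intergenic regions. Both SOX values include matches that share bases with a forkhead site, and the share over all peaks without such matches is not given here.

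Sequences that were less frequent in centres included the nuclear receptor half-site AGGTCA, with 7.63% (6.45 to 9.01) against 12.8% (11.3 to 14.5) in flanks. The GATA sequences AGATAA or TGATAA were in 18.6% (16.8 to 20.6) against 22.5% (20.5 to 24.5), with 14.97% of centres over all peaks. The AP-1 sequence TGACTCA was in 2.52% (1.87 to 3.39) against 4.09% (3.24 to 5.15). The intervals of both overlapped at their ends. GATA was in the centre alone in 240 regions and in the flank alone in 304, and AP-1 in 40 and 66. The TEAD sequence GGAATG (10.9% against 11.2%), the homeobox core TAATTA (6.61% against 6.49%), the MEIS sequence TGACAG (12.5% against 14.5%) and the GLI core GGGTGGT, the site of the Hedgehog effectors (2.94% against 2.58%), had intervals that overlapped between centre and flank. Regions with a match in the centre alone and in the flank alone numbered 168 and 173 for TEAD and 107 and 105 for TAATTA. For MEIS they numbered 171 and 205, and for GLI 47 and 41. The SP/KLF sequence GGGCGG was in 6.49% (5.40 to 7.78) of centres and 2.64% of flanks, while over all 9165 peaks 17.9% of centres held it. Among regions with no forkhead site the SP/KLF share was 9.44% (7.62 to 11.6), and among those with one it was 3.66% (2.59 to 5.14). The 2 sets also differed in median GC content of the central 200 bp, 46% without a site and 41.75% with one. The SP/KLF share was 1.64% at 40 to 45% GC and 53.8% at 60% or more. The part of base composition in the difference was not tested.

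The base composition of the intergenic regions was close to that of their surroundings. Median GC content of the central 200 bp was 43.5% (43.0 to 44.0) and that of the flanks 44.0%, against 46.0% over all peaks. The median ratio of observed to expected CpG was 0.248. A forkhead site was present in 66.0% (59.1 to 72.2) of the 197 regions under 35% GC, 55.5% at 40 to 45%, 37.7% at 50 to 60% and 14.3% (8.54 to 22.9) of the 91 regions at 60% GC or more. Flank shares moved from 20.8% to 14.3% over the same classes, which sort regions by the GC content of the centre and not of the flank. In the GC-rich class both shares were 14.3%, but the flanks there were not chosen to be GC-rich. The 2 shares are therefore not a like comparison, and no lack of enrichment can be read from them. Site and GC content were also read from the same 200 bp, so they are not independent. The 91 GC-rich regions made up 5.47% (4.48 to 6.67) of the intergenic regions, against 2.60% (1.94 to 3.47) of regions within genes at the same distance, 0.997% of intergenic regions beyond 100 kb and 23.7% of all peaks. Their limit of 60% was set after the values were seen. Of the 91, 53.8% held the SP/KLF sequence and 17 (18.7%) lay within 1 kb of the TSS of a non-coding gene, while the median score of 24 equalled that of all 1664.

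Signal in the intergenic regions was like that of the whole list at its middle and stronger at its top. The median region had 31 ChIP tags (quartiles 19 and 58, range 14 to 344) and 2 input tags (0 to 20). The deposited fold over input, which scales both libraries to the same depth, had a median of 12.9 and reached 173. A fold of at least 15 was found in 535 regions (32.2%, 29.95 to 34.4), against 33.5% of all peaks. No input tag was counted in 105 regions (6.31%), for which the authors' fold used 0.5 tags. At most 20 ChIP tags were found in 500 regions (30.05%), against 29.0% of all peaks, and 1099 (66.0%) had the smallest width of 500 bp, against 65.4%. The median score was 24 and that of all peaks 25, but 393 regions (23.6%, 21.6 to 25.7) scored at least 42 against 19.8% (18.99 to 20.6) of all peaks. The shares were 21.9% within genes at the same distance and 26.0% beyond 100 kb, with intervals that overlapped that of the intergenic regions in both cases. Among the 100 highest scores of the list were 31 of the 1664 regions (1.86%, 1.32 to 2.63), against 1.09% of all peaks. The shares were 1.24% (0.812 to 1.89) within genes at the same distance and 1.70% (1.19 to 2.43) beyond 100 kb.

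**Figure D3:**
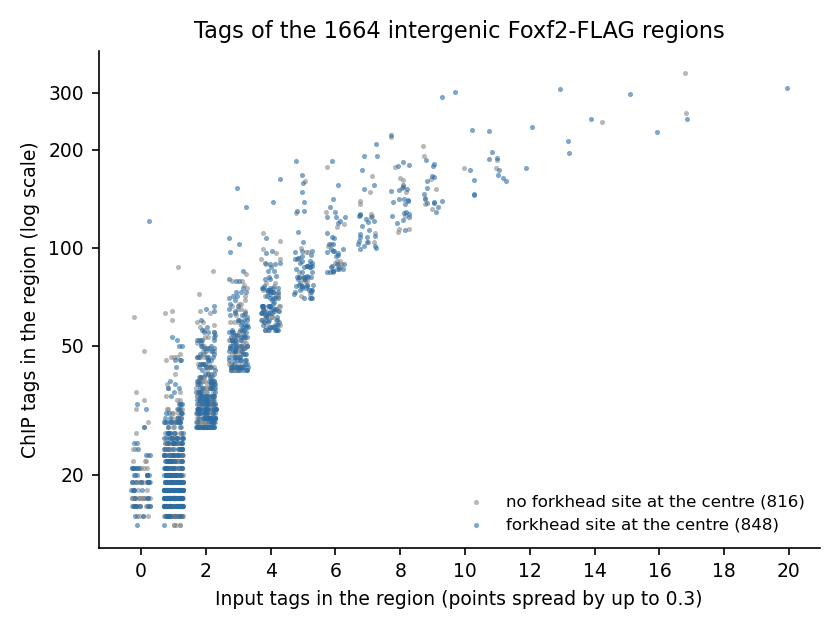
ChIP tags (vertical axis, log scale) against input tags (horizontal axis) for each of the 1664 intergenic regions, with 848 regions holding a central forkhead site in blue and 816 without one in grey. ChIP tags run from 14 to 344 and input tags from 0 to 20. The sharp lower edge is the 10-fold excess over input that the peak caller required.

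Per length of sequence the regions were least dense at 10 to 20 kb from the TSS and densest beyond 50 kb. Sequence that meets the rule came to 604 Mb, and it held 2.76 regions per Mb (2.63 to 2.89). Density was 2.41 per Mb (2.15 to 2.68) at 10 to 20 kb from the TSS, 2.70 at both 20 to 30 kb and 30 to 50 kb, 3.05 (2.73 to 3.40) at 50 to 70 kb and 3.01 (2.71 to 3.35) at 70 to 100 kb. The interval at 10 to 20 kb lay below those at 50 to 70 kb and 70 to 100 kb, and overlapped the others. The median distance was 41.6 kb. Upstream of the nearest TSS lay 1025 regions (61.6%), and 62.4% of the sequence was upstream, so the densities of 2.72 (2.56 to 2.89) upstream and 2.82 (2.60 to 3.04) downstream overlapped. Median scores of the 5 distance bins were 23 to 26, and the forkhead share was 48.8% to 56.0% with overlapping intervals.

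Chromosomes differed more than distances. The autosomes together held 2.94 regions per Mb (2.80 to 3.08), chromosome 3 held 3.94 (3.32 to 4.63) and chromosome 13 held 3.79 (3.16 to 4.51). Chromosome 14 held 1.76 (1.29 to 2.35) and chromosome 7 held 1.91 (1.51 to 2.40). The X chromosome held 39 regions, 0.787 per Mb (0.560 to 1.08), and the Y chromosome 0. How many copies of the X the shelves carried and how well short tags can be placed on each chromosome are not in these data, and their part in the densities was not tested.

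Each region lies between a gene on the left and one on the right. The space between these gene bodies had a median of 155 kb (quartiles 79.1 and 295 kb), and 2 regions had a protein-coding neighbour on one side alone. The nearer body was a median of 30.04 kb away and the farther 109 kb. Genes pointing away from each other flanked 495 regions (2.97 per Mb, 2.71 to 3.24), genes in tandem 821 (2.59 per Mb, 2.42 to 2.78) and genes pointing toward each other 346 (2.93 per Mb, 2.63 to 3.25). The forkhead share was 53.1% (48.7 to 57.5) between diverging genes, 52.4% (49.0 to 55.8) between tandem genes and 44.5% (39.4 to 49.8) between converging genes.

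Assignment to one gene was often a choice. The gene with the nearest TSS also had the nearest body for 1455 regions (87.4%, 85.8 to 88.9), with 99.4% between diverging, 83.6% between tandem and 79.5% between converging genes. For 28 regions (1.68%) the nearest TSS belonged to a gene that was neither neighbour. A protein-coding TSS lay within 100 kb on both sides for 600 regions (36.1%). The annotation also matters, because the gene models of the build are old: of the 1664 regions, 1476 (88.7%) were nearest to a gene that a RefSeq table of the later assembly GRCm38.p6 lists as protein-coding, 64 to one it lists as a long non-coding RNA, 59 to a pseudogene and 60 to a name it does not hold.

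Of the 10 highest-scoring regions, with scores from 150 to 189, 9 are described one by one. The region between Gm8325 and the purinergic receptor gene P2ry1 scored 179 with 185 ChIP and 6 input tags. The region between Dnpep and Des, the muscle intermediate filament gene, scored 163 with 168 and 5 tags, and its neighbours' TSSs were nearly equally far, at 20.5 and 22.2 kb.

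Nearest-TSS assignment passed over a closer gene body in some of these. The region at chr2:102647766-102648391 scored 153 with 156 ChIP and 6 input tags. It lay 46.7 kb from the TSS of Slc1a2, a glutamate transporter gene, but 3.22 kb from the end of Cd44, whose product is the hyaluronan receptor, and 93.4 kb from the Cd44 TSS. The region at chr10:115213586-115214086 (score 150, 146 and 9 tags) lay 40.5 kb from Tspan8 and 189 kb from Lgr5, a receptor for R-spondins. The others lay between Terf2ip and Cntnap4 (score 156, 158 and 5 tags), between Zfp608 and Gramd3 (155, 187 and 11 tags), between Gm6133 and Setbp1 (159, 177 and 8 tags), between Hhat and A730013G03Rik, and between Satb1 and Kcnh8. For the region between Terf2ip and Cntnap4 the nearest TSS was that of Gm6793, 46.5 kb away, which was neither neighbour. The body of Terf2ip was closer, at 41.1 kb. Of the 10 highest-scoring regions 8 held a central forkhead site, and the exceptions were those at Satb1 and at Gm6133 and Setbp1.

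Rank by tags differed from rank by score. The most ChIP tags, 344 against 17 input tags, lay between Slc14a2 and Gm6133 in a region that scored 28, with no central site. Next came the Hes1 region (309 and 20 tags, score 54), the region between Rnd3 and Tas2r134 (307 and 13, score 41), the one between 0610007P08Rik and Hsd17b3 (301 and 10, score 26) and the one between Gm9930 and Samd5 (297 and 15, score 115). All 4 held a central forkhead site.

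Genes of palate development had intergenic regions beside them far more often than genes at large. Over all 22238 protein-coding gene names, 1340 (6.03%) had the nearest TSS of at least 1 region, and 2315 (10.4%) had that or a body next to one. Among 55 palate regulators the counts were 25 (45.5%) and 27 (49.1%). The genes of this list have more intergenic sequence assigned to them (median 90 kb that meets the rule, against 7.70 kb over all genes), and per Mb of it they held 9.49 regions (6.84 to 12.8), against 2.76 over all. The list, like the others below, was drawn up with results of these data known, so its count is a description.

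**Figure D4:**
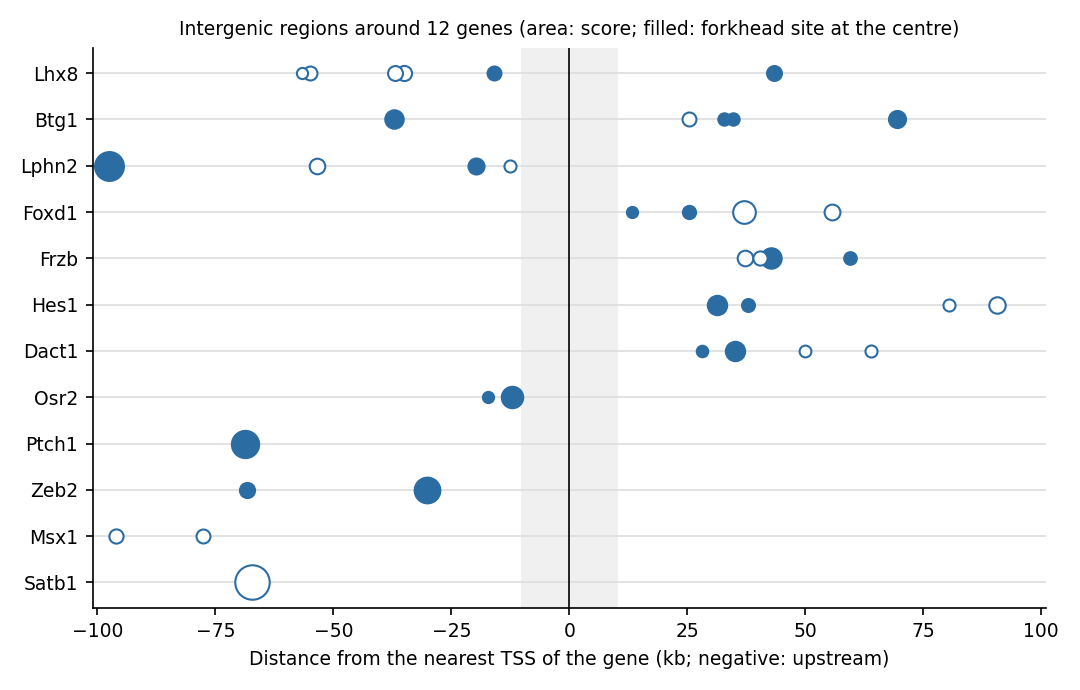
Intergenic regions around 12 genes by distance from the nearest TSS of the gene in kb (horizontal axis, negative is upstream). Circle area is proportional to the score, and filled circles have a forkhead site in the central 200 bp. The grey band is the inner 10 kb that the rule leaves out. Lhx8 has 6 regions, with scores up to 33, and Satb1 has 1 open circle with a score of 171.

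Foxf2 itself had 1 region, 42.7 kb downstream of its TSS at chr13:31760161-31760661, between Foxf2 and Foxc1, another forkhead gene. It scored 35 with 50 ChIP tags and 1 input tag, and 2 ATAAACA sites lay 82 and 22 bp left of its centre. The other forkhead genes with the highest-scoring regions were Foxi2 (score 86, 85 and 4 tags), Foxd1 (74, 125 and 7 tags) and Foxk1 (73, 186 and 9 tags). In all, 9 of 42 forkhead genes (21.4%) had 16 regions, 8.01 per Mb (4.58 to 13.0). Foxf1a, the closest relative of Foxf2, had 0 by either count, while a peak of another class lay 0.952 kb from its TSS (score 50). Foxe1, a gene of palate and thyroid, had 1 region next to it, 27.8 kb away, whose nearest TSS was that of 5830415F09Rik.

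Hedgehog pathway genes had the highest share of the 13 lists, 10 of 19 genes (52.6%), with 11 regions and 12.8 per Mb (6.404 to 22.95). Of the 11 regions 9 held a central forkhead site, against 51.0% of all 1664, and their median score was 53. In the other lists with regions the counts with a central site were 16 of 42 for palate regulators, 9 of 16 for forkhead genes, 5 of 9 for FGF, 2 of 7 for TGF-beta and BMP, 9 of 21 for Wnt, 12 of 25 for extracellular matrix, 2 of 7 for osteogenic genes, 2 of 3 for epithelium, 1 of 6 for endothelium and 2 of 2 for neural markers. Hhat encodes the acyltransferase that makes Hedgehog ligands active, and its region 18.95 kb upstream at chr1:194616047-194616672 scored 156 with 154 ChIP and 8 input tags (13.8-fold, 6.83 to 32.5). Its sites were GTAAACA 44 bp left and ATAAACA 81 bp right of the centre. Ptch1, the Hedgehog receptor, had a region 68.8 kb upstream at chr13:63742860-63743741 that scored 107 with 197 and 11 tags (12.8-fold, 7.02 to 26.1) and held GTAAACA 26 bp right of the centre. The co-receptor genes Cdon and Boc had 1 region each, with scores of 54 and 53, and the effector genes Gli2 and Gli3 had 1 each, with scores of 64 and 17. Gpc3, a glypican gene on the X chromosome, had 2, the higher at 66. Shh, the ligand gene of the palatal epithelium, had 0, and its nearest intergenic region of this class was 592 kb away. The nearest peak of any class lay 98.8 kb from Shh, with a score of 19.

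Osr2, an odd-skipped factor needed for shelf growth, had 2 regions upstream, 12.2 kb and 17.3 kb from its TSS. The nearer scored 66 with 100 ChIP and 7 input tags, the farther 18 with 18 and 1. The site of the nearer one was GTAAATA on the minus strand, 39 bp left of the centre. Pax9, a paired-box factor of the palatal and dental mesenchyme, had 1 region 10.1 kb upstream, just inside the rule, with a score of 33, 59 and 3 tags, and no central site. Msx1, a homeobox gene of the anterior palate, showed how assignment matters. In all, 4 regions lay between Msx1 and Stx18, and 2 of them, with scores of 29 and 28, were nearest to Msx1 at 96.0 and 77.6 kb. The other 2, with scores of 41 and 33, were nearest to Stx18, and the former had the most tags of the 4, 103 ChIP and 3 input.

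Zeb2, a zinc-finger repressor of neural crest cells, had 2 regions, 30.2 and 68.4 kb upstream, with scores of 95 and 33. They held 98 and 60 ChIP tags against 4 and 3 input tags, and both had central sites. Satb1, which encodes a chromatin organiser, had the third highest score of all the intergenic regions, 171, at chr17:52039535-52040301, 67.3 kb upstream, with 177 ChIP and 6 input tags (21.1-fold, 9.52 to 58.4). The central 200 bp held no site, and 2 sites lay elsewhere in the peak. Twist1 had 2 weak regions, with scores of 22 and 17 and 21 and 15 ChIP tags against 1 input tag each. Bnc2, a basonuclin gene of craniofacial mesenchyme, had 3, the highest at a score of 111 with 222 and 8 tags. Sox9, a regulator of cartilage, had 1 with a score of 21.

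Fgf18, which Foxf2 is known to restrain in the palate, had 1 region 41.6 kb downstream with a score of 36, 65 ChIP and 3 input tags and no forkhead site in the whole peak. Of 25 FGF pathway genes 7 (28.0%) had a region, among them the receptor gene Fgfr1 (score 50), the ETS factor gene Etv1 (score 55) and the feedback inhibitor gene Spry4, with 3 regions of which the highest scored 84 and all held a central site. Of 37 TGF-beta and BMP genes 6 (16.2%) had one, and their median score was 20. The highest were at Smad1, a BMP signal transducer (33), the ligand gene Bmp6 (29) and the BMP antagonist gene Nog (23). In that list density was 3.04 per Mb (1.22 to 6.26), an interval that includes the 2.76 of all genes. Bmp4 had 0 by either count.

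Wnt pathway genes had regions in 14 of 52 cases (26.9%), at 7.62 per Mb (4.72 to 11.7). Of the genes of secreted inhibitors, Frzb had 4, Sfrp2 had 3, Sfrp1 had 2, and Dkk2 and Wif1 had 1 each. Of the receptor genes, Fzd4 had 2 and Fzd7 and Fzd8 had 1 each. The ligand genes Wnt2b, Wnt7b, Wnt11 and Wnt16 had 1 each, as did Rspo1 and Rspo3, whose products enhance Wnt signalling. The 4 at Frzb lay 37.1 to 59.5 kb downstream, with scores of 60, 35, 29 and 23 and 103, 42, 30 and 86 ChIP tags. The highest at Sfrp2 scored 80 with 77 and 5 tags, and the one at Wnt16 scored 83 with 81 and 5 tags. Another 9 Wnt genes had a body next to a region without the nearest TSS.

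Extracellular matrix genes had regions in 18 of 54 cases (33.3%), at 7.70 per Mb (4.98 to 11.4). Col1a2, a chain of type I collagen, had 3 regions from 15.2 to 87.0 kb away, the highest with a score of 100, 100 ChIP and 5 input tags and no central site. Adamts5, a protease of versican and aggrecan, had 1 with a score of 82, and Col2a1, the cartilage collagen, 1 with a score of 71. Postn, which encodes periostin, had 2 with 148 ChIP tags together. Of 20 osteogenic genes 5 had a region, the highest at Msx2 with a score of 57, and Spp1, which encodes osteopontin, had 2 that scored up to 24. Runx2, the main osteoblast factor, had 0 by either count, while a peak of another class lay 0.272 kb from its TSS (score 32).

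Markers of other cell types of the shelf had regions at lower shares of their genes than the palate regulators, on few genes, while per Mb the intervals were wide. Epithelial markers had a region in 3 of 25 cases (12%), with Trp63 highest at a score of 87, 10.1 kb upstream, then the desmoglein gene Dsg3 at 64 and the keratin gene Krt8 at 19. Their density was 4.95 per Mb (1.02 to 14.5), and the median epithelial marker had 9.90 kb of sequence that meets the rule, against 90 kb for palate regulators. Endothelial markers had one in 3 of 20 cases (15%), with 3 regions at Cdh5 that scored up to 24, 2 at Emcn up to 30 and 1 at Egfl7 at 17. Their density was 7.67 per Mb (2.81 to 16.7), near that of the extracellular matrix and Wnt lists and with an interval that overlapped that of the palate regulators. Neural markers had one in 2 of 20 cases (10%), Snap25 and Sox2, and in 8 of 20 (40%) when the neighbouring body counted, at 1.40 per Mb (0.169 to 5.04). Muscle markers had 0 of 18 and blood markers 0 of 20, and their sequence that meets the rule was short, 0.335 and 0.197 Mb, so 0 regions left upper limits of 11.02 and 18.7 per Mb.

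**Figure D5:**
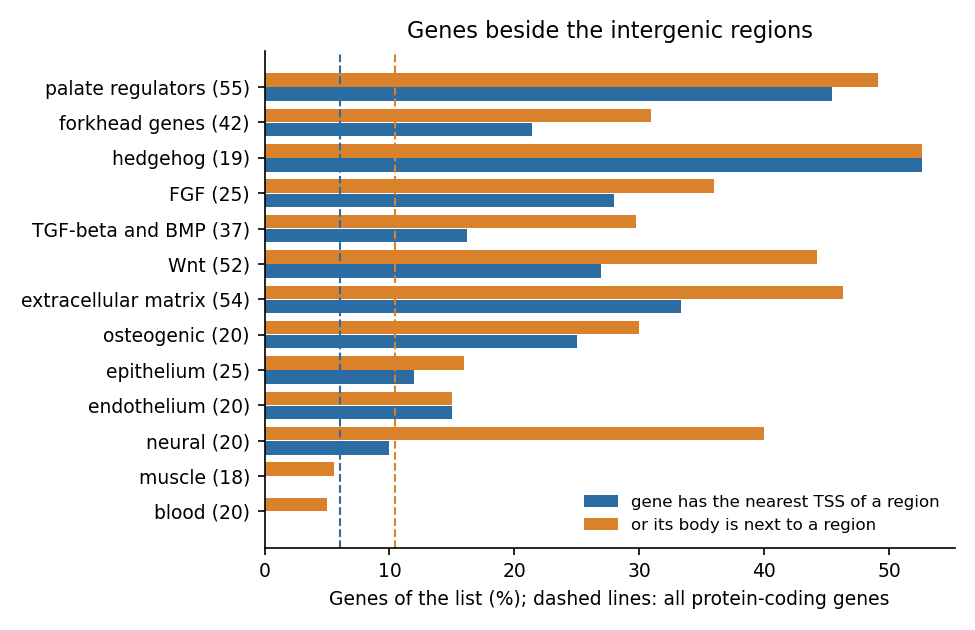
Share of the genes of each list (number of genes in brackets) that have the nearest TSS of an intergenic region (blue) or also a body next to one (orange), in %. Dashed lines are the shares over all protein-coding genes, 6.03% and 10.4%. Hedgehog genes reach 52.6% and palate regulators 45.5%, while muscle and blood markers have a blue bar of 0.

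Of the genes and intergenic spaces that had any region, most had 1. Of the 1340 genes 249 had at least 2, 55 at least 3, 16 at least 4 and 1 had 6. For 860 of the 1340 these regions were the only peaks assigned to the gene, while 241 also had a peak within 1 kb of a TSS. The 1664 regions lay in 1238 spaces between genes, of which 937 held 1, 220 held 2, 53 held 3, 18 held 4, 7 held 5, 2 held 6 and 1 held 7. Another region of this class lay within 10 kb of 202 regions (12.1%, 10.7 to 13.8), and any other peak within 10 kb of 229 (13.8%), against 14.9% over all peaks.

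Lhx8, a LIM homeobox gene needed for the palate, had the most regions, 6. They lay from 43.4 kb downstream to 56.6 kb upstream of its TSS, with scores of 18 to 33 and 16 to 130 ChIP tags, and 2 of the 6 had a central forkhead site. None reached the highest of the 5 score classes. The space between Lhx8 and Tyw3 held 5 of these and 1 more nearest to Tyw3, which scored 99. Btg1, an antiproliferative gene, had 5 with scores of 22 to 49, and Lphn2, an adhesion receptor gene, had 4, the strongest 97.5 kb upstream with a score of 120. Hes1, Foxd1, Frzb, Gm5447 and Pgpep1l also had 4 each. The 5 at Gm12830 and the 4 at 2610203C20Rik are beside genes that the later RefSeq table lists as long non-coding RNAs, the latter as Mir100hg, host of a microRNA.

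The space with the most regions, 7, lay between 0610007P08Rik and Hsd17b3 and was 158 kb long. In RefSeq 0610007P08Rik is Ercc6l2, a helicase gene, and it is also the gene on the far side of the Ptch1 region. The 7 scored 17 to 46 but held 657 ChIP tags together, and 3 had a central site. Hes1, a Notch effector gene, and Cpn2 flanked 6 regions with 607 tags together. The strongest by tags, at chr16:30096352-30097123, lay 31.3 kb downstream of Hes1 and held 3 sites, GTAAACA 14 bp left, ATAAACA 26 bp right and GTAAACA on the minus strand 51 bp right of the centre. The space between Dact1 and Daam1, both genes of Wnt signalling, held 5, the highest at 99 beside Daam1. Foxd1 and Gm10320 flanked 5, of which the GC-rich region printed above, with 73.0% GC, scored 74.

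Non-coding genes overlapped some regions that protein-coding models call intergenic. In the body of such a gene or within 1 kb of its TSS lay 122 regions (7.33%, 6.18 to 8.68), against 3.07% (2.35 to 4.001) of regions within genes at the same distance, 3.81% (3.00 to 4.83) of intergenic regions beyond 100 kb and 6.25% of all peaks. Bodies of long intergenic RNAs held 57 and those of processed transcripts 42. The 52 regions within 1 kb of a non-coding TSS had a median GC content of 52.5% (46.0 to 59.0) against 43.5% for the regions with neither, and 17 of the 52 (32.7%) were at 60% GC or more. Their forkhead share was 46.2% (33.3 to 59.5). The highest-scoring, named after their values were seen, were the region between Terf2ip and Cntnap4, 0.922 kb from the start of a U6 gene, and the Dem1 region, 0.5465 kb from that of Gm12871. Next came regions 0.044 kb from the start of the microRNA gene Mir30b with a score of 86, 85 ChIP and 4 input tags and 3 central sites, and 0.070 kb from Gm17439 with a score of 76. A region of 82.0% GC (score 74, 129 and 6 tags) lay 1.44 kb from the start of Mir17hg, host of a microRNA cluster, while its nearest protein-coding TSS was that of Gpc5, 50.8 kb away.

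Regions just inside and just outside the limits of the rule are given as a description. The closest region inside the inner limit lay 10.05 kb from Gng2 with a score of 18, and the closest outside lay 9.98 kb from Osm with a score of 41. The 35 regions at 10 to 11 kb had a median score of 20 and a forkhead share of 51.4% (35.6 to 67.0), and the 37 intergenic peaks at 9 to 10 kb had 31 and 59.5% (43.5 to 73.7). At the outer limit the 97 regions at 90 to 100 kb had 25 and 44.3% (34.8 to 54.2), and the 110 intergenic peaks at 100 to 110 kb had 27 and 53.6% (44.4 to 62.7). The last region inside lay 99.9 kb from 2610044O15Rik with a score of 19, and the first outside 100.1 kb from Gm10036 with a score of 17.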

How the data were processed

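The data were 1 ChIP library and 1 input library of E13.5 palatal shelves. The build was mm9 and the tools Bowtie 1.0.0, SAMtools 0.1.19 and HOMER, whose version the sources used here do not give, per the submitters' processing notes. Peak calling set the ChIP library against the input in windows of 500 bp that could be joined, at least 10-fold over input and over the local 10000 bp and at a p-value of at most 0.0001, with at most 1 tag kept per position, per the file headers. The deposited signal was ChIP tags scaled to 10000000. Multiplied back by the library total, values lay within 0.134 of whole tags (tolerance 0.15). The deposited fold was the ratio of depth-scaled ChIP tags to input tags, with 0.5 written for no input tag, and it put the input depth at 19235985 tags. The deposited score is the caller's ranking value for a peak. The authors' p-value column was not used further.

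Distances were taken from region centres to TSSs of protein-coding transcripts in GENCODE vM1 on NCBIM37, the assembly of mm9, and coordinates are on that build. The sequence that meets the rule was measured at points 100 bp apart, without allowance for mappability. Motifs were searched on both strands of the central 200 bp and of flanks. The genome file marks no repeats, so none were counted. Shares carry Wilson intervals, medians and folds exact binomial ones and densities exact Poisson ones. These cover counting error only, since there was 1 ChIP and 1 input library. Of 409 list entries 407 matched a gene name, 8 through an older symbol. Genes were named by a rule: both neighbours of the 10 highest-scoring regions and of the 5 with most tags, the 10 genes with most regions, the 3 genes per list with the highest score, the 5 fullest spaces between genes, and 15 genes of palate biology; others were named after their values were seen. The exception is 1 of the 10 highest-scoring regions, whose single values are not reported here. The regions, lists and rules were chosen with earlier results of these data known. Python 3.11.15, numpy 2.4.6, pandas 2.3.3, scipy 1.17.1 and matplotlib were used, and the scripts were tested on simulated data. Alternatives varied the peak threshold, the rule's limits, the TSS set, the motif window and the clustering distance.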

Additional observations from a re-analysis of the deposited data

How the results depend on the processing

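Of 116 alternative values, 82 stayed within the interval of the reported value or, for counts, within 1.5 times of it, and 34 did not. None changed the order of centre and flank for the forkhead site. With peaks of at least 15-fold alone, 535 regions remained, of which 3.18% had another within 10 kb, and 9 palate regulators and 2 genes with at least 3 regions were left. Above the median score of all peaks the values were 792 regions, a median score of 41, 64.9% with a forkhead site, 28.1% of nearby sites within 100 bp, 42.5% GC, 6.57% clustered, 15 palate regulators and 13 genes with at least 3. With at least 30 ChIP tags they were 873 regions, 39, 62.5%, 26.6%, 9.28% clustered and 16 genes with at least 3. An outer limit of 50 kb left 990 regions, 66.0% upstream, 16 palate regulators and 20 genes with at least 3, and an inner limit of 20 kb gave 58.7% upstream. With TSSs of all transcripts the nearest TSS and body agreed in 89.6%. Centres outside genes of every biotype left 1.28% at non-coding genes. Windows of 100 bp and 400 bp held forkhead sites in 30.6% and 71.1% of centres against 9.07% and 33.4% of flanks, and GTAAACA and ATAAACA alone in 41.5% against 9.44%. Clustering was 6.37% within 5 kb and 20.8% within 20 kb, and 31 genes had at least 3 regions when neighbours within 10 kb counted once. Fewer regions pass each stricter filter by its construction. In the same way a score limit raises the median score, and a wider motif window or clustering distance raises its share. Leaving out gene bodies of every biotype likewise lowers the share at non-coding genes. The cause of the other shifts was not tested. ChIP and input libraries could not be compared as replicate pairs, because there was 1 of each. Depth limits the weak regions most: with 1 input tag or none, the interval of a fold is very wide or has no upper end.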
